A study of Mus musculus with 3 samples.

Results

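The 9 genes described here code for receptors, and for 1 ligand, with which macrophages take up modified lipoproteins, debris and dying cells. They are the receptor tyrosine kinases Mertk and Axl and their ligand Gas6, the scavenger receptors Stab1, Msr1, Marco and Cd163, the folate receptor Folr2 and the lysosomal glycoprotein Gpnmb. They were taken by symbol, and all 9 were found among the 27998 genes of the deposited matrices. Gas6 is a secreted ligand and Gpnmb is not a classical scavenger receptor, so the name receptor fits those less closely than the others. RNA of single cells was counted by unique molecular identifiers (UMIs, 1 per captured RNA molecule) in 3 libraries of myeloid cells made with 10x 3′ version 2 chemistry. All came from C57BL/6J mice bearing a subcutaneous B16F10 melanoma, a transplantable pigmented mouse tumor line. The first library was the tumor of a FoxP3 DTR mouse labelled treg-depleted (the Treg-depleted tumor); in such mice the diphtheria toxin receptor is expressed from the locus of Foxp3, the transcription factor of regulatory T cells, so that the toxin removes them. The second was a tumor of WT mice labelled control (the control tumor), and the third was blood of tumor-bearing WT mice labelled control (the control blood). The FoxP3 DTR allele and the depletion come together and cannot be told apart. The age of the animals, the schedule of depletion and any pooling are not given in the sources used here. Sorted cells were CD45+ with CD11b, CD11c or both, and lacked CD90, NK1.1, Ly6G, B220 and SigF. Since CD90+ cells were sorted out, the loss of regulatory T cells cannot be checked in these libraries.

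Efferocytosis is the clearance of dying cells, which expose phosphatidylserine as a signal for uptake. Mertk and Axl bind that lipid through the bridging ligands Gas6 and Pros1, whereas stabilins and TIM proteins bind it directly. Class A scavenger receptors bind modified lipoproteins and microbial polyanions, and Cd163 takes up haemoglobin bound to haptoglobin. Several of these genes are known as markers of tissue-resident macrophages, while classical monocytes enter tumors from blood and can become macrophages there.

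A barcode was taken as a cell at 1000 UMIs, 400 genes and at most 10% mitochondrial UMIs. This left 4434 cells of the Treg-depleted tumor, 4443 of the control tumor and 5550 of the control blood, with medians of 3820, 6452 and 3550 UMIs per cell in that order. Total UMIs per library were between 22944387 and 42493416, and median mitochondrial shares were between 2.11% and 2.67%. The 2 tumor libraries shared 36 cell barcodes, against 26.7 had they been drawn independently. The control blood shared 27 with the Treg-depleted tumor and 35 with the control tumor, against 33.4 for each. Cells were placed by marker genes other than the 9. A summed level of 4000 CPM (UMIs of a gene or list per 1000000 UMIs of the cell or class) of 8 classical monocyte genes (among them Ly6c2, Ccr2, Chil3, Plac8, Vcan, F13a1 and Hp) and of 8 macrophage genes (among them C1qa, C1qb, C1qc, Ms4a7, Adgre1, Pf4 and Cd81) divided the monocyte-to-macrophage lineage into a macrophage gate, a both-list gate, a neither-list gate and a monocyte gate. These gates are ranges of a level and not cell types. The lineage held 4135 cells of the Treg-depleted tumor and 3943 of the control tumor. The macrophage gate held 485 cells (10.9% of all cells [10.0, 11.9]) in the Treg-depleted tumor and 1575 (35.4% [34.0, 36.9]) in the control tumor, with medians of 3798 and 10262 UMIs per cell. The monocyte gate held 1625, 1310 and 3127 cells in the Treg-depleted tumor, the control tumor and the control blood. Within 1.5 times of the macrophage threshold lay 19.3% of the lineage cells of the Treg-depleted tumor and 12.8% of those of the control tumor. The gates also differed inside: in the macrophage gate C1qa was at 974 CPM in the Treg-depleted tumor and 3156 CPM in the control tumor, whereas Pf4 was at 2802 and 931 CPM. With 1 library per group no difference between groups could be tested over animals, so no p-value is given. Levels are CPM over all UMIs of a class of cells, with exact Poisson 95% intervals in brackets. A ratio of 2 levels has an exact conditional interval on the log2 scale, and shares of cells have Clopper-Pearson 95% intervals. All these intervals cover counting error only. A gene counted as measured in a comparison with at least 20 UMIs in either class, and as higher or lower when its ratio was at least 2-fold.

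In the lineage as a whole, the ligand Gas6, Marco and Folr2 were lower in the Treg-depleted tumor than in the control tumor, and Cd163 was higher. All 9 genes were measured. Of them 1 was at least 2-fold higher, against 7.79% of the 11125 genes measured, and 3 were at least 2-fold lower, against 8.57%. Axl fell just short of 2-fold lower, at −0.99 [−1.11, −0.87]. The interval lay below 0 for 5 of the 9 genes and above 0 for 2. The median log2 ratio of the 9 genes was −0.66, beside −0.06 for all measured genes. The mix of gates differs between the tumors, and the 9 genes differ by gate, so each gene is given below by gate as well. Within the macrophage gate 1 of the 9 was higher (9.9% of all measured genes) and 4 were lower (11.6%), with a median of 0.13. In the monocyte gate 5 were measured, of which 2 were higher (9.53%) and 0 lower (5.3%). Gas6, Axl, Gpnmb and Marco were the 4 lower in the macrophage gate, while Stab1 and Mertk were the 2 higher in the monocyte gate. Gas6 and Marco, with 11 and 2 UMIs in the macrophage gate of the Treg-depleted tumor, were measured only through the control tumor. Mertk, with 9 UMIs in the monocyte gate of the control tumor, was measured only through the Treg-depleted tumor. The intervals of Marco in the macrophage gate, [−4.63, 0.38], and of Mertk in the monocyte gate, [−0.08, 2.44], hold 0. Gas6, Marco, Cd163 and Folr2 had fewer than 20 UMIs in each monocyte gate, so the gates cannot be compared for them.

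**Figure D1:**
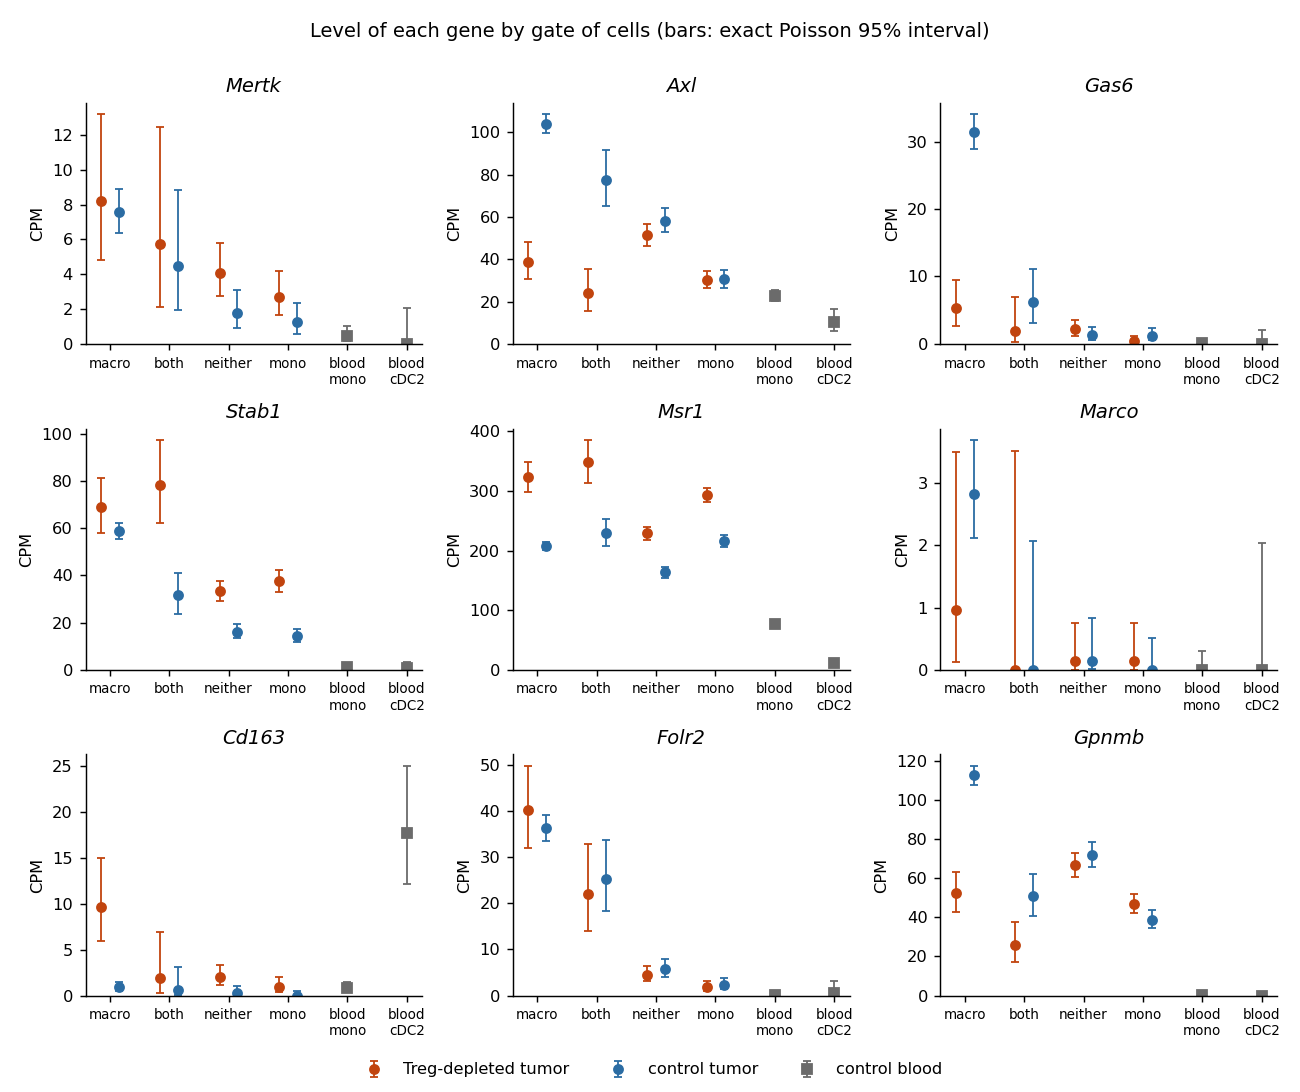
Level (CPM, y axis of each panel, own scale) of each of the 9 genes in the macrophage, both-list, neither-list and monocyte gates of the Treg-depleted tumor and the control tumor, with the monocyte gate and the type 2 conventional dendritic cells (cDC2) of the control blood; points are levels of 1 library and lines are exact Poisson 95% intervals. Axl, Gas6 and Gpnmb stand at 38.8, 5.33 and 52.3 CPM in the macrophage gate of the Treg-depleted tumor and at 104, 31.4 and 112 CPM in that of the control tumor, whereas Stab1 is higher in the Treg-depleted tumor in the monocyte gate.

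Promoter sequences are shown for Axl, Gas6 and Gpnmb, which were lower together in the macrophage gate of the Treg-depleted tumor, and for Stab1, which was higher in its monocyte gate. Each is the 250 bases before the start of the gene, read 5′ to 3′ on the gene's own strand, from RefSeq on build GRCm38.p6. Axl lies at chr7:25788734-25788983 (minus strand), Gas6 at chr8:13494536-13494785 (minus), Gpnmb at chr6:49036268-49036517 (plus) and Stab1 at chr14:31168642-31168891 (minus). Capitals mark matches, on either strand, to 5 motifs: CACGTG and CATGTG, known from MiT/TFE factors of lysosomal genes, GAGGAA of PU.1, TGANTCA of AP-1 and TGCTGA of another family of basic leucine zipper factors.
Axl: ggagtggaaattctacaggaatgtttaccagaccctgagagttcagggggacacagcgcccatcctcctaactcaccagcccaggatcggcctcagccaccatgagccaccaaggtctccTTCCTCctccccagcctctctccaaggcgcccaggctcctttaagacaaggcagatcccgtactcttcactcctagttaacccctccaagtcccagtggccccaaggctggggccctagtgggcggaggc
Gas6: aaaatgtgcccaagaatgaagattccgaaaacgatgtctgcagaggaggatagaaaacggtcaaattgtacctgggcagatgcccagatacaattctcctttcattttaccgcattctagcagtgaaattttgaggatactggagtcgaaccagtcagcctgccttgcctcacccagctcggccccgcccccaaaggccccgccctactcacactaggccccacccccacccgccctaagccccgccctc
Gpnmb: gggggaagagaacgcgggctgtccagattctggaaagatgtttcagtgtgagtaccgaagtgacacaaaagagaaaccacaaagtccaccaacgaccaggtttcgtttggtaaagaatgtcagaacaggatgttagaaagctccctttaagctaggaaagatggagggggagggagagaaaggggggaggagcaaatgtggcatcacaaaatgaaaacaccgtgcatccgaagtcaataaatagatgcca
Stab1: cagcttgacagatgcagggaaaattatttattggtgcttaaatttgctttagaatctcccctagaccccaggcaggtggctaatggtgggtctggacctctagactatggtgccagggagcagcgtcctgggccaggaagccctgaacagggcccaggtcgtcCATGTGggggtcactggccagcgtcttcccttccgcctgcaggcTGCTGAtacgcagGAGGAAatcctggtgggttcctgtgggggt
Stab1 held CATGTG as well as TGCTGA and GAGGAA, Axl held the reverse complement of GAGGAA, and neither the Gas6 nor the Gpnmb window held any of the 5. Of 32851 such windows in the genome, 23.3% held GAGGAA, 16.1% TGCTGA, 12.3% CATGTG, 6.75% TGANTCA and 6.02% CACGTG. A match is a description of the letters and does not show that a factor binds, and the absence of a match says only that the letters are not in these 250 bases. Windows were found for 8 of the 9 genes, and Msr1 had no entry.

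Gas6, the secreted ligand of Mertk and Axl (chr8:13465374-13494490, GRCm38), was the gene with the lowest ratio in both the lineage and the macrophage gate. Its lineage level was 1.80 CPM in the Treg-depleted tumor (32 UMIs in 29 of 4135 cells) and 18.0 CPM in the control tumor (628 UMIs in 275 of 3943 cells), a log2 ratio of −3.33 [−3.89, −2.82]. Its level in the macrophage gate was 5.33 CPM [2.66, 9.53] in the Treg-depleted tumor and 31.4 CPM [28.9, 34.0] in the control tumor, a log2 ratio of −2.56 [−3.57, −1.71]. The cells of the control tumor are deeper, and the share with a Gas6 UMI depends on depth. After each cell was thinned to 1000 UMIs, 0.290% [0.15, 0.51] of lineage cells in the Treg-depleted tumor and 1.09% [0.79, 1.47] in the control tumor held 1, against 0.701% and 6.97% before. In the macrophage gates the thinned shares were 1.65% [0.71, 3.22] of 485 cells and 2.60% [1.87, 3.52] of 1575 cells, with intervals that overlap. At 2000 UMIs they were 1.02% [0.28, 2.58] of 394 cells and 4.68% [3.66, 5.89] of 1474 cells, with intervals that do not. In the control tumor the macrophage gate held 91.0% of all Gas6 UMIs, and the level there was 25.1 times that of its monocyte gate (1.25 CPM). No Gas6 UMI was seen in its 119 cDC2, which allows a share of cells with a UMI of up to 2.52% when 3 counts are taken as the limit. The control blood held 1 Gas6 UMI in 5550 cells. Barcodes under 100 UMIs, which hold free RNA rather than cells, gave 0 Gas6 UMIs in the Treg-depleted tumor, 45 in the control tumor (14.0 CPM [10.2, 18.8]) and 3 in the control blood, so Gas6 was lower in the Treg-depleted tumor in RNA outside cells as well.

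Axl (chr7:25757273-25788705) was lower in the macrophage gate of the Treg-depleted tumor and did not differ beyond counting error in the monocyte gate. Its level in the macrophage gate was 38.8 CPM [30.7, 48.2] in the Treg-depleted tumor and 104 CPM [99.7, 109] in the control tumor, a log2 ratio of −1.43 [−1.77, −1.10]. In the both-list gate the levels were 23.9 and 77.6 CPM (−1.70 [−2.38, −1.08]). The neither-list gates were at 51.4 and 58.3 CPM (−0.18 [−0.39, 0.02]) and the monocyte gates at 30.4 and 30.6 CPM (−0.01 [−0.29, 0.26]). By gate, the difference between the tumors thus stood in the macrophage and both-list gates. It also reached below the macrophage threshold. In lineage cells at 2000 to 4000 CPM of the summed macrophage list, Axl was at 41.9 and 64.7 CPM (−0.63 [−0.97, −0.30]). In the control tumor the order of levels ran from the macrophage gate through the both-list and neither-list gates to the monocyte gate, with no overlap between neighbouring intervals. In the Treg-depleted tumor the neither-list gate was highest and the both-list gate lowest, intervals of neighbours overlapped, and the macrophage gate was not separated from the monocyte gate (0.35 [−0.04, 0.73]). In the monocyte gate of the control blood Axl was at 22.9 CPM in 7.20% [6.31, 8.16] of cells, close to the 21.6 CPM [9.34, 42.6] and 5.0% [1.64, 11.3] of the 100 blood B cells, which have a median of 2795 UMIs against 3832. With 8 UMIs in those B cells, a difference was not detectable at this depth. Free RNA was estimated to add at most 2.32 CPM of Axl to blood cells, and blood nonclassical monocytes, cDC2 and neutrophils were at 13.8, 10.5 and 9.61 CPM. Mature dendritic cells held 24 Axl UMIs (58.1 CPM) in the Treg-depleted tumor and 16 (22.4 CPM) in the control tumor.

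Mertk (chr2:128698956-128802894), the kinase best known from macrophages, was sparse. The interval of its ratio held 0 in the macrophage and monocyte gates but lay above 0 in the neither-list gate. Its lineage level was 4.10 CPM (73 UMIs) in the Treg-depleted tumor and 4.97 CPM (173 UMIs) in the control tumor, a log2 ratio of −0.28 [−0.69, 0.12], which was 0.40 with the gate mix of the control tumor in both. In the macrophage gates it was at 8.24 and 7.55 CPM (0.13 [−0.69, 0.85]). In the monocyte gate it was at 2.72 CPM (20 UMIs) in the Treg-depleted tumor and 1.25 CPM (9 UMIs) in the control tumor, a log2 ratio of 1.12 whose interval of [−0.08, 2.44] holds 0. Under 6 alternative settings the monocyte gates had fewer than 20 Mertk UMIs each. Within each tumor the macrophage gate was above the monocyte gate, by 3.02-fold in the Treg-depleted tumor and 6.03-fold in the control tumor. The third kinase of the family, Tyro3, had 0 UMIs in the lineage of both tumors. Pros1, the other bridging ligand, was at 11.2 CPM in the Treg-depleted lineage and 15.3 CPM in the control lineage (−0.45 [−0.69, −0.21]), a much smaller difference than that of Gas6; Pros1 and Tyro3 were chosen after their values were seen.

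Stab1 (chr14:31139013-31168641), which codes for Stabilin-1, a phosphatidylserine-binding scavenger receptor, was higher in the Treg-depleted tumor in the monocyte, both-list and neither-list gates. In the monocyte gate its level was 37.4 CPM [33.1, 42.1] in the Treg-depleted tumor and 14.2 CPM [11.6, 17.2] in the control tumor, a log2 ratio of 1.40 [1.07, 1.74]. In the neither-list gate the levels were 33.2 and 16.1 CPM (1.04 [0.71, 1.38]), where Stab1 and Mertk were the 2 of 6 measured genes that were higher, against 11.4% of all genes there; 0 were lower (6.44%). In the both-list gate they were 78.4 and 31.5 CPM (1.32 [0.81, 1.83]), and Stab1 was the 1 of 5 measured genes that was higher (8.58%). The macrophage gates were closer, at 68.8 and 58.7 CPM, and the interval of the ratio, 0.23 [−0.03, 0.48], holds 0. Over the whole lineage the levels were 41.7 and 39.9 CPM, so the gate differences were not seen in the sum. Stab1 overlaps Nt5dc2 on the other strand, a gene with 1367 UMIs in cells, and whether the counting used strand is not given in the sources used here.

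**Figure D2:**
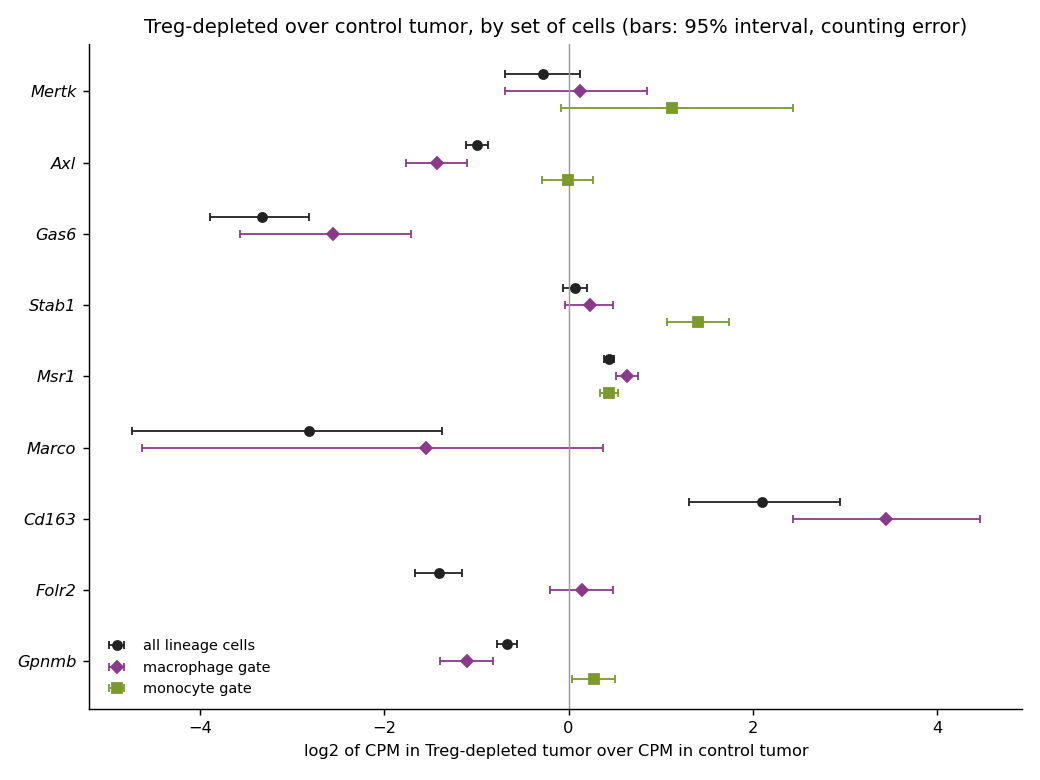
Log2 ratio of the Treg-depleted tumor over the control tumor (x axis) for each of the 9 genes with at least 20 UMIs in either class, in the whole lineage, the macrophage gate and the monocyte gate; points are ratios of 1 library each and lines are exact conditional 95% intervals. Stab1 is at 0.07, 0.23 and 1.40 in these 3 classes, Axl at −0.99, −1.43 and −0.01, and Gpnmb at −0.66, −1.10 and 0.27.

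Msr1 (chr8:39581685-39642673), the class A scavenger receptor SR-A, was the most widely detected of the 9. It had a UMI in 2271 of 4135 lineage cells of the Treg-depleted tumor and 2456 of 3943 of the control tumor. Its lineage level was 273 CPM [266, 281] in the Treg-depleted tumor and 202 CPM [197, 206] in the control tumor (0.44 [0.39, 0.49]). The same direction stood in every gate. Its levels were higher in the Treg-depleted tumor in all 4 gates, at 323 and 207 CPM in the macrophage gate, 348 and 229 CPM in the both-list gate, 229 and 163 CPM in the neither-list gate and 293 and 216 CPM in the monocyte gate, but never by 2-fold. Within the control tumor its macrophage gate did not differ from its monocyte gate beyond counting error (−0.06 [−0.14, 0.03]), and within the Treg-depleted tumor the log2 ratio of the macrophage gate over the monocyte gate was 0.14 [0.01, 0.26]. In 5 bins of rising summed macrophage list from 1000 CPM up, Msr1 was at 267, 288, 315, 349 and 523 CPM in the Treg-depleted tumor and between 193 and 218 CPM in the control tumor. The blood monocyte gate was at 76.4 CPM, with a UMI in 24.4% [22.9, 25.9] of cells against 6.0% [2.23, 12.6] of blood B cells. Blood nonclassical monocytes were at 52.0 CPM, and cDC2 at 15.6, 11.3 and 11.1 CPM in the Treg-depleted tumor, the control tumor and the blood.

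Marco (chr1:120474538-120505024), the other class A receptor, was a gene of very few cells. The control tumor lineage held 55 UMIs (1.58 CPM) in 17 cells, and 4 of those cells held 50% of them, with up to 11 UMIs in a cell. The Treg-depleted lineage held 4 UMIs in 4 cells (0.225 CPM), and no cell of the control blood held any. The log2 ratio of the tumors was −2.82 [−4.74, −1.38] in the lineage. With only 2 UMIs and 54 UMIs in the macrophage gates, the ratio there was −1.55 and its interval of [−4.63, 0.38] holds 0. The macrophage gate of the control tumor was 6.79-fold above its monocyte gate, where 0 UMIs were counted and 3 were taken as the floor over the gate. The lower limit of the interval of this ratio was 2.42 on the log2 scale. In barcodes under 100 UMIs the order of the tumors was the reverse, with 20 Marco UMIs in the Treg-depleted tumor and 4 in the control tumor.

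Cd163 (chr6:124304656-124330527), the haemoglobin scavenger receptor, was also sparse, and higher in the Treg-depleted tumor. The lineage held 44 UMIs in 25 cells (2.47 CPM) in the Treg-depleted tumor and 20 UMIs in 18 cells (0.575 CPM) in the control tumor, a log2 ratio of 2.10 [1.31, 2.94]. The macrophage gate was at 9.69 CPM in the Treg-depleted tumor (20 UMIs in 9 cells) and 0.891 CPM in the control tumor (17 UMIs in 15 cells), a ratio of 10.9-fold (3.44 [2.43, 4.47] on the log2 scale). Of the 44 UMIs in the Treg-depleted lineage, 6 cells held 50%, so the level rests on a few cells, and under 4 alternative settings the macrophage gates had fewer than 20 Cd163 UMIs each, at log2 ratios of 3.11 to 4.90. In the control blood the gene stood mainly elsewhere, with 32 of 51 UMIs (62.7%) in the 427 cDC2. Blood cDC2 were at 17.7 CPM [12.1, 25.0], against 10 UMIs in the 3127 cells of the blood monocyte gate and 2.50 CPM (2 UMIs) in the 119 cDC2 of the control tumor. The 31 cDC2 of the Treg-depleted tumor held 4 UMIs.

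Folr2 (chr7:101839988-101857194), the folate receptor beta, tracked the macrophage gate in both tumors. Its lineage level was 8.59 CPM in the Treg-depleted tumor and 22.8 CPM in the control tumor (−1.41 [−1.67, −1.16]). Macrophage gate levels were 40.2 CPM [32.0, 49.8] and 36.3 CPM [33.6, 39.1], a log2 ratio of 0.15 [−0.20, 0.48]. In the monocyte gates they were 1.91 CPM (14 UMIs) and 2.36 CPM (17 UMIs). When the gates of both tumors were weighted by the gate mix of the control tumor, the lineage ratio was 0.07 for Folr2, against −2.26 for Gas6. The lower lineage level of Folr2 was thus not seen within the macrophage gate, whereas that of Gas6 was. The macrophage gates differ in marker levels between the tumors, and the part of the gate mix in the Folr2 level was not tested. The macrophage gate held 50.9% of Folr2 UMIs of the Treg-depleted tumor, in 10.9% of its cells, and 83.6% of those of the control tumor, in 35.4% of its cells.

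Gpnmb (chr6:49036546-49070929), a glycoprotein of lysosomes and melanosomes found in phagocytes and also in melanoma cells, was lower in the macrophage gate of the Treg-depleted tumor and slightly higher in its monocyte gate. In the macrophage gate it was at 52.3 CPM [42.9, 63.2] in the Treg-depleted tumor and 112 CPM [108, 117] in the control tumor (−1.10 [−1.40, −0.82]), and the ratio was −0.56, within 2-fold, with a stricter gate. In the monocyte gates the levels were 46.8 and 38.8 CPM (0.27 [0.04, 0.50]). The neither-list gates were at 66.5 and 71.8 CPM (−0.11 [−0.30, 0.07]) and the both-list gates at 25.8 and 50.6 CPM (−0.97 [−1.65, −0.34]), where of 5 measured genes Axl alone was at least 2-fold lower (9.95% of all genes). The blood monocyte gate held 5 UMIs in 3127 cells. Because B16F10 cells can carry Gpnmb, melanoma genes (Mlana, Pmel, Dct, Tyr, Tyrp1, Slc45a2, Trpm1) were counted beside it. The 31 and 170 lineage cells with 5 or more Gpnmb UMIs in the Treg-depleted and the control tumor had melanoma lists of 5.53 and 13.6 CPM, against 6.88 and 11.7 CPM in cells with no Gpnmb UMI. The 469 and 666 cells with 1 to 4 Gpnmb UMIs had higher melanoma lists, at 10.4 and 25.2 CPM. A melanoma UMI was seen in 4.48% of them in the Treg-depleted tumor and 17.9% in the control tumor, against 2.70% and 7.37% of cells with no Gpnmb UMI, which are shallower (medians of 4154 and 9216.5 UMIs with 1 to 4 Gpnmb UMIs, 3750 and 5988 with none). The part of melanoma RNA in the Gpnmb levels was not tested. By gate the melanoma list was at 14.0 CPM in the macrophage gate of the Treg-depleted tumor, with Tyr and Trpm1 at 0, and at 20.9 CPM in that of the control tumor, with none of the 7 at 0. The 1 cell that passed the melanoma gate, in the Treg-depleted tumor, held 81 Gpnmb UMIs beside 830 UMIs of the melanoma list. Free RNA was estimated to add 2.79 and 3.00 CPM of Gpnmb to cells of the Treg-depleted and the control tumor, values that are not upper limits. In the 80 neutrophils of the Treg-depleted tumor, however, 6.25% [2.06, 14.0] held a Gpnmb UMI at a median of 1950 UMIs, and the interval of that share reaches the 10.1% [7.57, 13.1] of its macrophage gate.

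The monocyte gates of the control tumor and the control blood were also compared, although these gates differed inside. C1qa was at 86.5 CPM in the control tumor and 4.00 CPM in the control blood, C1qb at 239 and 24.7 CPM and Pf4 at 34.8 and 0.320 CPM. Adgre1 went the other way, at 113 and 122 CPM. The part of these marker levels in the differences below was not tested. Of the 9 genes, 4 were measured, and 3 of these were at least 2-fold higher in the control tumor than in the control blood, against 11.5% of all genes, while 0 were lower, against 28.0%. Gpnmb and Stab1, with 5 and 14 UMIs in the blood gate, were measured only through the tumor gate. The median log2 ratio of the 4 was 2.58, beside −0.46 over all measured genes. Gpnmb had the largest ratio, with 38.8 CPM in the control tumor and 0.400 CPM (5 UMIs) in the blood (6.60 [5.36, 8.23]). Stab1 was at 14.2 and 1.12 CPM (3.66 [2.85, 4.58]) and Msr1 at 216 and 76.4 CPM, a ratio of 2.83-fold. Axl was within 2-fold, at 30.6 and 22.9 CPM (0.42 [0.16, 0.68]). The other 5 had fewer than 20 UMIs in both gates: Mertk 9 and 6, Gas6 9 and 1, Folr2 17 and 1, Cd163 0 and 10, and Marco 0 in both. Tissue digestion and blood collection differ between these libraries and cannot be told apart from the site.

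Within the tumors, several of the genes were higher in the macrophage gate than in the monocyte gate, and none was 2-fold lower. In the control tumor 7 of 8 measured genes were higher, against 15.3% of all genes, and 0 were lower (4.71%). Of the 7, Marco, Mertk, Gas6 and Folr2 had 0, 9, 9 and 17 UMIs in the monocyte gate. They were thus measured only through the gate where they were high. In the Treg-depleted tumor 3 of 7 were higher, against 4.29%, and 0 lower (5.16%). Folr2 and Cd163, with 14 and 7 UMIs in its monocyte gate, were measured there in the same way. The count was 1 in place of 3 under 3 alternative settings, in which Mertk and Cd163 had fewer than 20 UMIs in both gates. The median log2 ratio of those measured was 0.88 in the Treg-depleted tumor and 2.32 in the control tumor, beside 0.10 and 0.16 over all measured genes. The difference between these counts was not tested. Folr2 had ratios of 21.1-fold in the Treg-depleted tumor and 15.3-fold in the control tumor. Axl was 1.28-fold higher in the macrophage gate in the Treg-depleted tumor and 3.41-fold in the control tumor, Gpnmb 1.12-fold and 2.90-fold, and Stab1 1.84-fold and 4.14-fold.

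Since the macrophage gate of the control tumor reaches higher marker levels, the genes were also set against the summed macrophage list itself in 6 bins. In the 4000 to 8000 CPM bin, Axl was at 30.7 CPM in the Treg-depleted tumor and 81.7 CPM in the control tumor (−1.41 [−1.80, −1.05]), and Gpnmb was at 35.8 and 102 CPM (−1.50 [−1.85, −1.17]). At 8000 to 16000 CPM, Gas6 was at 4.52 CPM (3 UMIs) and 29.8 CPM (295 UMIs). At 16000 CPM and over, with 46 cells of the Treg-depleted tumor and 460 of the control tumor, Axl had 1 UMI and 690 UMIs, and Gas6 had 0 and 257 UMIs. In that bin Folr2 went the other way, at 161 and 63.0 CPM (1.36 [0.65, 1.99]). Stab1 and Msr1 were higher in the Treg-depleted tumor in all 6 bins, although the interval of Stab1 in the top bin, 0.50 [−0.32, 1.22], holds 0. Below 1000 CPM of the macrophage list, Gpnmb was higher in the Treg-depleted tumor, at 53.0 and 35.4 CPM (0.58 [0.37, 0.79]). Only the sum of the list is matched in a bin, and not its makeup. C1qa was at 1192 CPM in the Treg-depleted tumor and 5824 CPM in the control tumor at 16000 CPM and over, and at 889 and 1224 CPM at 4000 to 8000 CPM. At matched sums the genes parted into Axl, Gas6 and Gpnmb, which were lower in the Treg-depleted tumor in all 3 bins from 4000 CPM up, and Stab1, Msr1 and Folr2, which were not. The lower levels were not confined to those bins. Axl was also lower at 1000 to 2000 CPM (−0.38 [−0.75, −0.02]) and at 2000 to 4000 CPM (−0.63 [−0.97, −0.30]), but not below 1000 CPM (0.21 [−0.01, 0.44]). Gpnmb was lower at 2000 to 4000 CPM (−0.85 [−1.16, −0.55]), and its interval held 0 at 1000 to 2000 CPM (−0.22 [−0.50, 0.05]).

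**Figure D3:**
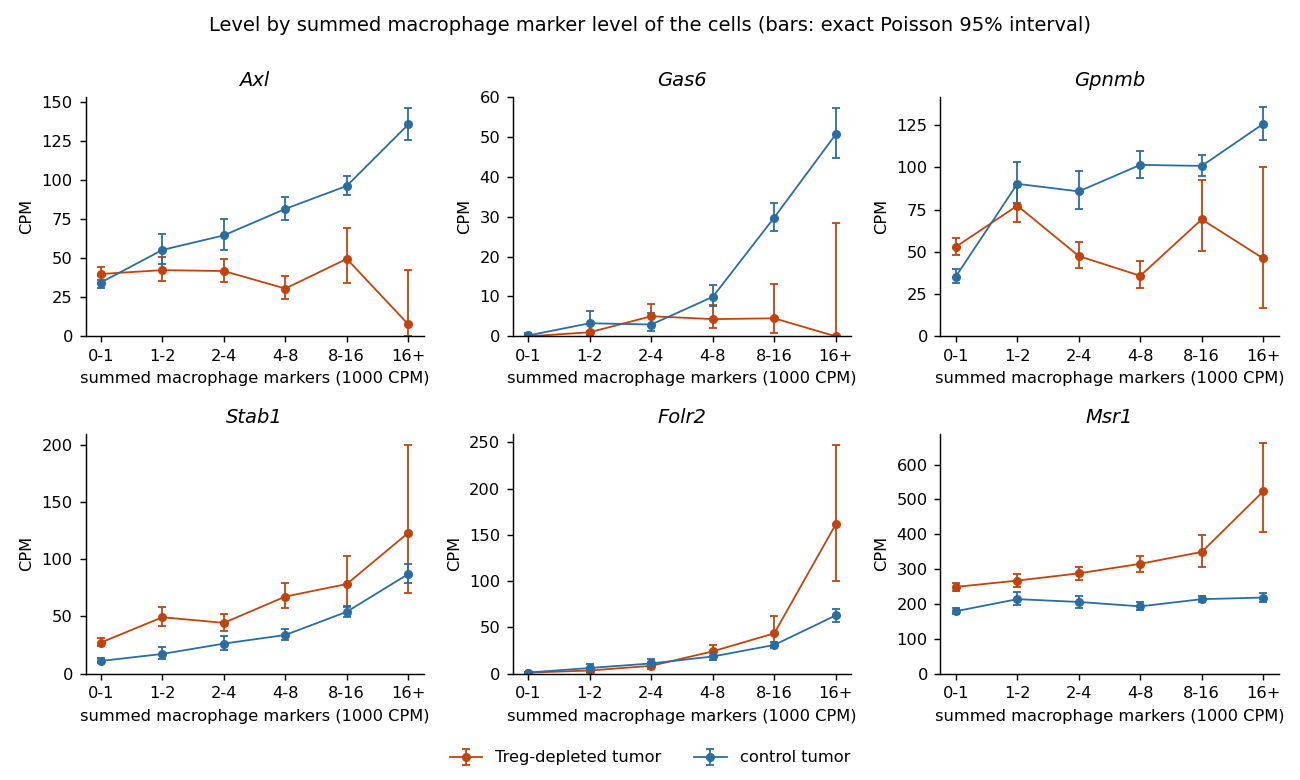
Level (CPM) of Axl, Gas6, Gpnmb, Stab1, Folr2 and Msr1 (1 panel each, y axis) in lineage cells binned by the summed level of the 8 macrophage genes (x axis, CPM, low to high) in the Treg-depleted tumor and the control tumor; points are levels of 1 library and lines are exact Poisson 95% intervals. In the top bin Folr2 is at 161 CPM in the Treg-depleted tumor and 63.0 CPM in the control tumor, whereas Axl is at 7.69 and 136 CPM.

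The lineage of the Treg-depleted tumor also varied along a pair of gene axes known for alternative and for inflammatory activation. Cells were split at 2000 CPM of Retnla and Mrc1 summed, and apart from that at 2000 CPM of Mmp12 and Nos2 summed. The 554 Retnla/Mrc1-high cells of the Treg-depleted tumor (15 in the control tumor) held 26 of the 44 Cd163 UMIs and 21 of the 32 Gas6 UMIs. In them Cd163 was at 11.9 CPM, against 1.15 CPM in the other 3581 cells, Folr2 at 36.7 against 4.67 CPM, and Gas6 at 9.63 against 0.704 CPM. Axl and Gpnmb ran the other way, at 20.6 against 42.3 CPM and 22.5 against 58.8 CPM. The same held inside the macrophage gate, where 132 Retnla/Mrc1-high cells had Folr2 at 88.8 CPM and Gpnmb at 13.8 CPM, against 24.4 and 64.8 CPM in the other 353. Gas6 was at 15.8 CPM [6.82, 31.1] (8 UMIs) in those 132 cells and at 1.93 CPM (3 UMIs) in the other 353, while the 1565 macrophage-gate cells of the control tumor under the threshold were at 31.6 CPM. Over the lineage, the 554 Retnla/Mrc1-high cells had a median summed macrophage list of 2916 CPM, against 895 CPM in the others. The part of that level in the lineage differences was not tested.

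Gpnmb was higher in Mmp12/Nos2-high cells than in other lineage cells of both tumors. In the Treg-depleted tumor 788 such cells, 492 of them in the neither-list gate, were at 124 CPM, against 39.2 CPM in the other lineage cells, and 178 of 788 against 322 of 3347 cells held a UMI. In the control tumor 62 such cells, 42 of them in the macrophage gate, were at 507 CPM, against 78.0 CPM in the others. Up to 51 Gpnmb UMIs were counted in a cell of that group. The melanoma list was at 14.7 CPM in these cells of the Treg-depleted tumor, against 5.68 CPM in its other lineage cells, and at 13.6 against 15.1 CPM in the control tumor; its part in the Gpnmb difference was not tested. In the macrophage gate of the Treg-depleted tumor Folr2 was at 15.6 CPM in 105 Mmp12/Nos2-high cells, against 47.1 CPM in the other 380. In that of the control tumor it was at 78.8 CPM in 42 such cells, against 35.2 CPM in the other 1533. These levels rest on few cells, and the difference in direction between the tumors was not tested.

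**Figure D4:**
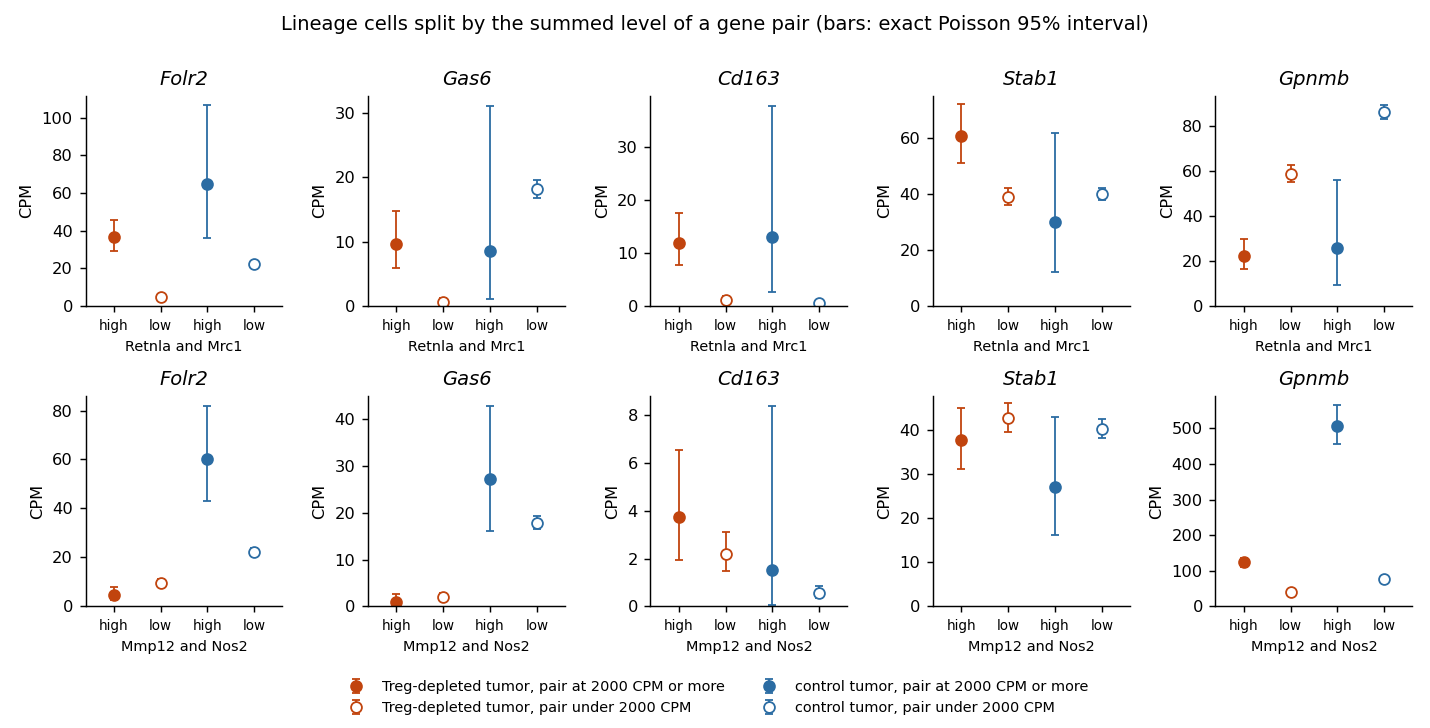
Level (CPM, y axis) of Folr2, Gas6, Cd163, Stab1 and Gpnmb in lineage cells at or above and under 2000 CPM of Retnla and Mrc1, and of Mmp12 and Nos2, in the Treg-depleted tumor and the control tumor; points are levels of 1 library and lines are exact Poisson 95% intervals. In the Treg-depleted tumor Folr2 is at 36.7 CPM in Retnla/Mrc1-high cells and 4.67 CPM in the others, and Gpnmb at 124 CPM in Mmp12/Nos2-high cells and 39.2 CPM in the others.

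Cells that held a pair of the 9 genes together were counted after thinning each cell to 2000 UMIs, beside the number expected from the product of the shares. The product was taken over the whole lineage, so a pair of genes that stand mainly in the macrophage gate can exceed it through the mix of gates. In the control lineage Stab1 and Folr2 were seen together in 19 cells, against 6.17, and Stab1 and Gpnmb in 34, against 19.3. Folr2 and Gpnmb were together in 19 cells, against 9.80, and Gas6 and Gpnmb in 11, against 6.89. In the Treg-depleted lineage Stab1 and Gpnmb were together in 22 cells, against 21.5, and Axl and Stab1 in 17, against 17.4 (3360 cells). At 1000 UMIs Axl was seen with Stab1 in 10 of 4135 Treg-depleted cells, against 6.54. Within the macrophage gate of the control tumor at 1000 UMIs, Stab1 and Folr2 were together in 3 cells, against 2.39, and Gas6 and Stab1 in 1, against 2.08. Stab1 and Gpnmb were together there in 9 cells, against 5.89, Folr2 and Gpnmb in 9, against 3.46, and Gas6 and Gpnmb in 7, against 3.02. The part of the gate mix in the lineage numbers was not tested.

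The genes with the most similar pattern were found by Pearson r of log2(CPM + 1) over 21 library and gate groups of at least 50 cells, among 5074 genes with at least 50 CPM in a group. These values are descriptions; the groups share libraries and depth. Stab1 was most like Mdm2 (0.96), Lrp12 and Creb5 (both 0.95). Gpnmb was most like Mmp14 (0.97), Cxcl1 and Hspa1a (both 0.95), and among the genes most like Msr1 were Fcgr2b and Myof (both 0.92). Folr2 was most like Igf1 (0.89), C1qc (0.87) and C1qa (0.86), and Mertk like F7 (0.90), Ch25h and Stab1 (both 0.88). Axl was most like Ms4a7 (0.85), Psen2 (0.81) and Lpl (0.80), and Gas6 like Vcam1 (0.86), Gde1 (0.79) and Igf1 (0.78). Cd163 and Marco had no gene above 0.72 and 0.68, and Cd163 was between −0.23 and 0.29 with the other 8. C1qc, C1qa and Ms4a7 were among the genes that set the gates.

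A wider list of 71 genes of uptake, bridging and lysosomal function, of which 70 were found, gives the setting. In the lineage 60 were measured, of which 9 were at least 2-fold higher (7.79% of all genes) and 13 lower (8.57%) in the Treg-depleted tumor, with a median log2 ratio of −0.05 beside −0.06 for all genes. Olr1, the lectin-like receptor for oxidized lipoprotein, was at 98.2 CPM in the Treg-depleted lineage and 19.9 CPM in the control lineage (2.31), and Tfec, a MiT/TFE factor of macrophages, at 56.7 and 11.7 CPM (2.28). In the control tumor Trem2, a lipid-sensing receptor, was at 304 CPM in the macrophage gate and 42.6 CPM in the monocyte gate (2.84), and Cd63, a lysosomal tetraspanin, at 1033 and 170 CPM (2.60). Genes picked after their values were seen went both ways between the tumors. The mannose receptor Mrc1 was at 333 and 100 CPM in the Treg-depleted and the control lineage and the lipid receptor Cd36 at 424 and 150 CPM, whereas Trem2 was at 65.4 and 195 CPM. Timd4, which codes for the phosphatidylserine receptor TIM-4, had 11 and 184 UMIs. In the macrophage gate 12 of 59 measured genes of the list were higher (9.9% of all genes) and 16 lower (11.6%) in the Treg-depleted tumor, and in the monocyte gate 10 of 54 were higher (9.53%) and 7 lower (5.3%). Between the monocyte gates of the control tumor and the control blood 12 of 56 were higher (11.5%) and 7 lower (28.0%). The macrophage gate was above the monocyte gate for 5 of 54 (4.29% of all genes) and below it for 1 (5.16%) in the Treg-depleted tumor, and above for 16 of 59 (15.3%) and below for 3 (4.71%) in the control tumor. No test of the list was made.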

How the data were processed

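UMI counts per gene and barcode were used as the authors deposited them, made with Cell Ranger 1.2 on mm10, per the submitters' processing notes; the matrices list 737280 barcodes per library. Counts were neither corrected nor scaled before summing. Cells were kept at 1000 UMIs, 400 genes and at most 10% mitochondrial UMIs, and were gated per cell by marker lists that leave out the 9 genes. Counts were summed per library and gate and given per 1000000 UMIs (CPM). Intervals are exact Poisson, conditional Poisson or Clopper-Pearson at 95%. Cells were thinned to 1000 or 2000 UMIs for shares. Free RNA was profiled in barcodes under 100 UMIs. Its share of cell RNA was estimated at 3.16% in the Treg-depleted tumor and 2.94% in the control tumor, and at no more than 9.46% in the control blood. The tumor estimates used C1q genes in cells outside the lineage, and left out those at 2000 CPM or more of the macrophage list. They are therefore not upper limits. No doublets were removed. The 9 genes and all lists were chosen with earlier results of these data known, and the gate thresholds were set after the data were seen. Genes of the wider list were named at a 4-fold ratio with at least 50 CPM in the higher class, in the lineage comparison or between gates of a tumor. Results for some genes are not reported here. Gene positions are from GENCODE M21 on GRCm38, in which 27645 of 27998 IDs were found. The intervals were tested on simulated data. Python 3.11.15, NumPy 2.4.6, SciPy 1.17.1, pandas 2.3.3, scikit-learn 1.9.0 and Matplotlib 3.10.9 were used.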

Additional observations from a re-analysis of the deposited data

Results flagged for a closer look

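Gpnmb differed in opposite directions in the gates of the tumors: its log2 ratio of the Treg-depleted tumor over the control tumor was −1.10 in the macrophage gate (52.3 and 112 CPM) and 0.27 in the monocyte gate (46.8 and 38.8 CPM). Neither interval holds 0, but the difference between the gates was not tested, since each tumor is 1 library.

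Barcodes of 1 to 99 UMIs, which no comparison of cells uses, held more Marco and Msr1 per UMI in the Treg-depleted tumor than in the control tumor, with intervals that do not overlap. Marco was at 6.72 CPM [4.11, 10.4] there, from 20 UMIs in 20 barcodes, against 1.25 CPM [0.34, 3.19] in the control tumor and 0 UMIs in the control blood. In cells the order was the reverse, at 0.258 CPM (5 UMIs) in the Treg-depleted tumor and 1.47 CPM (57 UMIs) in the control tumor. Msr1 was at 259 CPM [241, 278] in these barcodes of the Treg-depleted tumor and 188 CPM [174, 204] in those of the control tumor, in the same order as in cells. Neither difference was tested over animals.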

How the results depend on the processing

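No paired analysis was possible because each group is 1 library. Over the whole lineage, Axl was also at least 2-fold lower when the highest doublet scores on scaled genes were left out. In the monocyte gate, the number of the 9 genes at least 2-fold higher in the Treg-depleted tumor was 1 in place of 2 with a UMI minimum set per library, at most 5% mitochondrial UMIs, either doublet scoring, free RNA subtracted or a stricter gate; in each, Mertk had fewer than 20 UMIs. In the macrophage gate that number was 0 in place of 1 with the per-library minimum, 5% mitochondrial UMIs, doublet scores on scaled genes or the stricter gate, where Cd163 had fewer than 20 UMIs. The count of genes higher in the macrophage gate than in the monocyte gate of the Treg-depleted tumor was 1 in place of 3 with the per-library minimum, 5% mitochondrial UMIs or the scaled doublet scores, where Mertk and Cd163 had fewer than 20. Pairs seen together at least 1.5 times as often as the product of their shares, with 5 or more cells expected, numbered 0 in the Treg-depleted tumor and 4 in the control tumor at 2000 UMIs, against 2 and 2 at 1000. These shares were over the whole lineage, whose mix of gates differs between the tumors. With the gate mix of the control tumor in both, added after the data were seen as was the scaled scoring, the lineage ratio of Folr2 turned to 0.07, that of Mertk was 0.40 in place of −0.28, Stab1 0.62 in place of 0.07 and Marco −1.33 in place of −2.82; this setting replaces only the shares of the gates. Under the stricter gate 18 of 42 values of single genes moved past their interval, and Gpnmb in the macrophage gate was at −0.56. Both doublet scorings missed most doublets planted in the data, so these settings bear little on doublets.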
